A study of Mus musculus with 24 samples.

Results

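Broad H3K4me3 domains were defined as long stretches of trimethylated lysine 4 of histone H3 (H3K4me3) in wild-type group 3 innate lymphoid cells (ILC3s) of the mouse small intestine. All peaks of the 6 WT H3K4me3 lists (autosomes and X) were merged where they overlapped or touched. A merged region was kept as a broad domain when it held a peak of 2500 b or more in at least 3 of the 6 lists. This gave 422 broad domains among 18599 merged regions, leaving 18177 other regions. The WT peak widths chose the members, so those widths are given below as a description. The median domain had a longest WT peak of 2584 b (range 1393.5 to 4507 b, median over the 6 WT libraries). Other regions with a peak in all 6 WT lists had a median of 1177.5 b.

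The libraries were made by CUT&Tag, a method that cuts and tags DNA with a transposase tethered to an antibody on chromatin, and each held 100000 sorted cells per the labels' protocols. KO cells carried floxed Cxxc1 alleles and a Cre, and WT cells carried the same floxed alleles without the Cre (Cxxc1flox/flox), so both genotypes share the floxed locus. The labels do not describe how the Cre was made. The sorted subsets were CCR6+, NKp46+ and DN ILC3s (DN is not spelled out in the labels), each with 2 replicates per genotype and antibody. The antibodies were H3K4me3 (Active Motif) and one against CFP1, giving 24 libraries in 12 groups of 2. The labels state an age of 6 to 8 weeks, while their protocol text speaks of both young and aged animals and a growth medium is listed, so age and handling are unsettled. The labels do not say if replicates, or subsets with 1 replicate number, were taken from different animals. The p-values below reflect spread among libraries that may be technical.

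H3K4me3 marks the start of transcribed genes and of genes poised for transcription. In most cells it forms a short block around the start site, and at a minority of genes it spreads into the gene body. Such broad domains have been described at genes tied to cell identity and to rapid responses. CFP1, encoded by Cxxc1, binds unmethylated CG dinucleotides through its CXXC zinc finger and brings the SET1 methyltransferase complexes to CG-rich promoters. ILC3s respond to interleukins 23 and 1 and secrete interleukins 22 and 17.

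Because CFP1 reads CG dinucleotides, promoters of 5 of the widest domains are shown with every CG in capitals. They run from 250 b before to 50 b after an annotated start site and come from RefSeq (GRCm38.p6). The first 3 belong to domains with a CFP1 peak in all 6 WT libraries. These are Tgif1 (chr17:70851685-70851984, minus strand, 22 CG), Pim1 (chr17:29490535-29490834, plus strand, 42 CG) and Ubtf (chr11:102319543-102319842, minus strand, 11 CG). The last 2 belong to domains with no CFP1 peak in any WT library, Gpr183 (chr14:121965144-121965443, minus strand, 4 CG) and Snx18 (chr13:113618515-113618814, minus strand, 35 CG).
Tgif1: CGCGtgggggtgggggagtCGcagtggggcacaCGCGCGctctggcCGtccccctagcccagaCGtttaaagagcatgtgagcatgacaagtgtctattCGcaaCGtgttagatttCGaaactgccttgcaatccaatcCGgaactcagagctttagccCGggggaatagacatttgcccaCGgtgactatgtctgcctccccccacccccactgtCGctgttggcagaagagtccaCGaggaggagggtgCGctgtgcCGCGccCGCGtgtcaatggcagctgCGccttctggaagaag
Pim1: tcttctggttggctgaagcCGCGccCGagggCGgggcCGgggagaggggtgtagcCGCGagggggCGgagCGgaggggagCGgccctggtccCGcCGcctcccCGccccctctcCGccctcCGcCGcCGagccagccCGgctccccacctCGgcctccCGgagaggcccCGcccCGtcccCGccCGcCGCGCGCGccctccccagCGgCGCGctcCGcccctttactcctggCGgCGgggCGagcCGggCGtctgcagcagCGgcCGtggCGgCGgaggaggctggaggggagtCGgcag
Ubtf: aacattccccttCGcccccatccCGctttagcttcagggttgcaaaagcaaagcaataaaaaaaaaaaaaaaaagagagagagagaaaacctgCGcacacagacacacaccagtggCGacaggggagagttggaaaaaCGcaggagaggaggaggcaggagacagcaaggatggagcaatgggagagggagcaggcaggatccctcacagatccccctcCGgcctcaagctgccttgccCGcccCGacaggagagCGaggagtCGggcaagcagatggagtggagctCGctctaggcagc
Gpr183: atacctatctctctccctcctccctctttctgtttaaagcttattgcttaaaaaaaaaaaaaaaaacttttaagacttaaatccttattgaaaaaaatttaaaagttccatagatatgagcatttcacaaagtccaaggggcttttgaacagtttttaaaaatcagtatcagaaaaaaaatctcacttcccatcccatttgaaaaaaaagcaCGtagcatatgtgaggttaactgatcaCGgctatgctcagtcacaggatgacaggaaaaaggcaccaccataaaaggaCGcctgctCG
Snx18: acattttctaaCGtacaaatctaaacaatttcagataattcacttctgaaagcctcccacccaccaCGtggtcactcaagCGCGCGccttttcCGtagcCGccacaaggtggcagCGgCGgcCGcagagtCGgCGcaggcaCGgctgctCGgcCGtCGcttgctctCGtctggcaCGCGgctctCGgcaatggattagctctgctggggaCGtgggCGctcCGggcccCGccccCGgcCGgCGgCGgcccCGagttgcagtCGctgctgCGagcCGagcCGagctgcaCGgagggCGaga
The motif searched was CG, which reads the same on both strands. Of 21044 RefSeq promoters of this length, 938 (4.46%) held none.

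The H3K4me3 lists held 11794 to 18127 peaks in KO and 12838 to 15397 in WT, and sequencing depth is unknown because the lists carry no read totals. In the number of long peaks, replicate number separated the libraries more than genotype did. In replicate 1, 11 to 68 of the 422 domains held a peak of 2500 b or more in KO libraries and 41 to 185 in WT libraries. In replicate 2 the same counts were 192 to 301 in KO and 413 to 416 in WT. The rule was met by the 3 WT libraries of replicate 2 alone at 211 domains (50.0%), and 29 domains held such a peak in all 6 WT libraries. The pieces also differed: 2 or more separate peaks covered 2.84% to 37.7% of domains in KO libraries and 0.711% to 42.7% in WT libraries, with the highest shares in replicate 1. CFP1 lists held 714 to 8881 peaks in KO and 4574 to 7983 in WT, and KO DN replicate 2 (8881) and KO NKp46+ replicate 2 (4891) had as many as WT libraries.

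**Figure D1:**
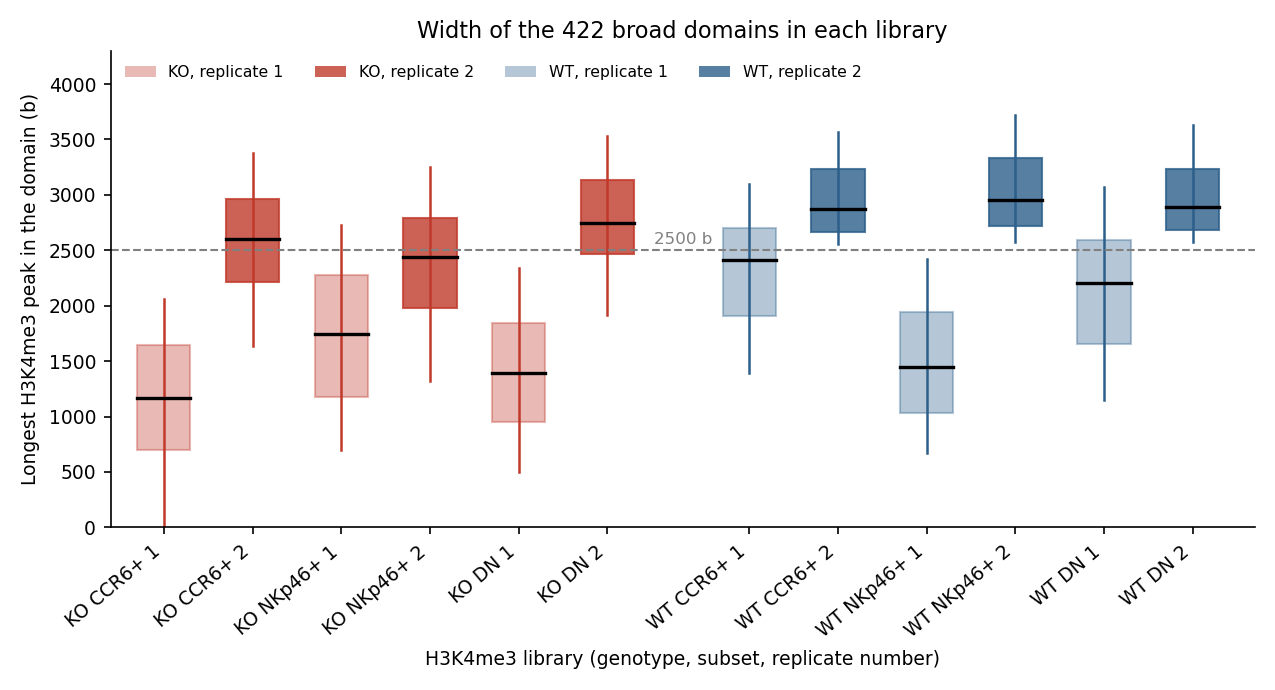
Longest H3K4me3 peak (b) in each of the 422 broad domains, by library, with KO libraries left of WT libraries. Boxes span the middle 50.0% of domains, black lines are medians, whiskers run from the lowest to the highest decile, and domains with no peak count as 0 b. Replicate 2 libraries (dark) sit above replicate 1 libraries (light) in both genotypes, and the dashed line is the 2500 b of the rule, which the 3 dark WT boxes lie above.

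The 12 widest domains are given first. Tgif1, a homeobox repressor that acts in TGF-β signalling, had the widest domain (chr17:70848793-70853486, mm10). Its longest peak ran from 1602 to 4545 b in KO libraries (median 4269.5 b) and from 2667 to 4694 b in WT libraries (median 4507 b), and the genotypes overlapped. Next came a domain shared by Brd2, a bromodomain reader of acetylated histones, and its neighbour H2-DMa, a chaperone of MHC class II loading. Its medians were 3007 b in KO and 4443.5 b in WT. Anp32a, an inhibitor of histone acetylation (3722.5 b in KO, 3947 b in WT), and the nuclear long noncoding RNA gene Malat1 (1916 b in KO, 3946.5 b in WT) followed. Ssbp4 had 3766.5 b in KO and 3933.5 b in WT, and the domain shared by Ppp1r18 and Nrm had 2407.5 b in KO and 3853 b in WT. Gpr183, a receptor for oxysterols that positions lymphocytes, had 1253 b in KO and 3770 b in WT. Zmiz1, a transcriptional coactivator, had 3382 b in KO and 3760 b in WT. Mxi1, an antagonist of MYC, had 3761 b in KO and 3741 b in WT. The antiproliferative gene Tob2 (2184 b in KO, 3739.5 b in WT), the sorting nexin gene Snx18 (2456.5 b in KO, 3735.5 b in WT) and the zinc finger gene Zfp516 (2102 b in KO, 3652 b in WT) complete the 12 widest. Just inside the rule were Dleu2, Nt5e and Med14, whose peak at rank 3 of the 6 WT widths measured 2500, 2503 and 2503 b, and just outside were Man1a, Sh2b3 and Rara with 2499, 2498 and 2497 b.

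A larger share of broad domains than of other regions sat at genes. The regions were not matched for length: domains were at least 2528 b long, and a longer region has more gene ends within reach. The part of length in these shares was not tested. An annotated end of a protein-coding gene lay within 1000 b of 319 domains (75.6%), against 54.0% of other regions. A further 44 domains (10.4%, against 5.15% of other regions) covered an annotated start site inside a gene, as at Gata3, Ubtf, Cytip, Midn and P2rx7. Another 38 lay elsewhere inside a gene (9.0%, against 22.1%), 14 touched only a noncoding gene (3.32%, against 6.72%) and 7 touched no gene (1.66%, against 12%). The domains carried 416 coding genes, and 51 domains held ends of 2 or more coding genes. Width went with a low rank of enrichment. The strongest peak of a domain stood at a median percentile of 26.8 ± 3.65 of its own list's fold enrichment in KO libraries and 23.3 ± 3.31 in WT libraries (SD, n = 6 each). For other regions it was 55.4 ± 1.61 in KO and 52.2 ± 0.765 in WT libraries. Fold enrichment is the authors' own value for a peak.

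Among 11831 coding genes with a WT H3K4me3 region, 416 (3.52%) were in a broad domain. The share was 43.3% for immediate early and feedback genes (13 of 30), 41.7% for ILC3 effectors and receptors (10 of 24), 31.6% for SET1/MLL complexes and H3K4 demethylases (6 of 19), 26.7% for KLF factors and quiescence genes (4 of 15) and 22.7% for ILC3 transcription factors (5 of 22). It was 20.8% for lymphocyte surface and signalling genes (5 of 24), 15.4% for housekeeping genes (2 of 13) and 14.3% for circadian clock genes (2 of 14). Among markers of other cells, 0 of 11 T cell genes, 0 of 5 myeloid genes, 0 of 2 B cell genes, 0 of 4 epithelial genes, 0 of 3 stromal and endothelial genes and 0 of 6 developmental genes with a region were in a domain. The exceptions were Bcl6 on the ILC2 list (1 of 8) and Tbx21, a factor of NK cells and ILC1s that NKp46+ ILC3s also express, on the NK and ILC1 list (1 of 8). The longest WT peak at Tbx21 was 1006 and 2687 b in CCR6+, 942 and 3074 b in NKp46+ and 1444 and 2964 b in DN cells (replicates 1 and 2). Its domain was thus not confined to NKp46+ libraries. The T cell list leaves out Cd4, Cd28, Zap70 and Lcp2. These stood on the ILC3 receptor or lymphocyte lists and were in broad domains. These counts describe lists chosen with earlier results known, and no test was made of them. Domains inside Nfkbiz, Nr4a2, Ywhaz, Il2rb and Lcp1, away from those genes' annotated ends and start sites, are not in the counts.

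**Figure D2:**
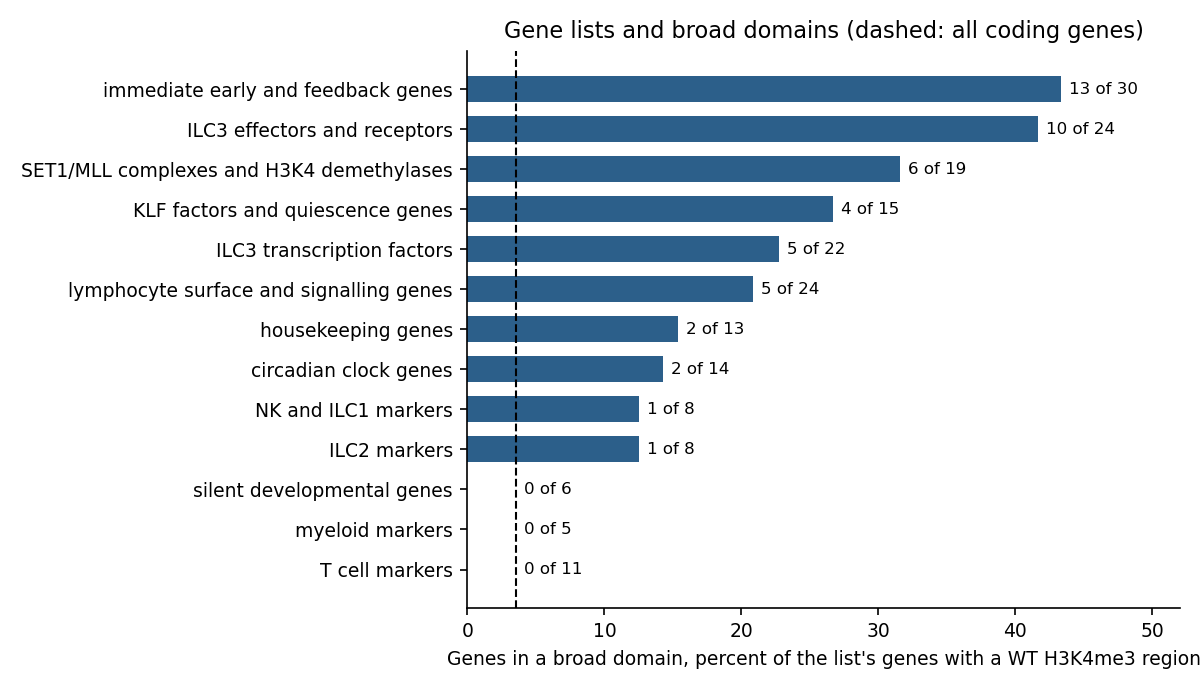
Share of each list's genes with a WT H3K4me3 region that were in a broad domain, in percent, for lists with at least 5 such genes. Numbers beside the bars are counts, and the dashed line is the 3.52% of all coding genes. Immediate early genes (13 of 30) and ILC3 effectors and receptors (10 of 24) have the longest bars, and T cell, myeloid and developmental lists have none.

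The ILC3 effector and receptor genes in broad domains were Il7r, Nrp1, Il1r1, Cxcr5, Kit, Cxcr6, Cd4, Il23r, Ccr9 and Ccr6. Il7r, the receptor for the survival cytokine interleukin 7, had the widest WT domain of them (chr15:9527024-9530299). Its longest peak was 0 to 2982 b in KO libraries (median 1961 b) and 747 to 3271 b in WT libraries (median 3178 b). Nrp1, a semaphorin receptor found on CCR6+ ILC3s, had 623 to 2568 b in KO and 844 to 2941 b in WT. Kit, the stem cell factor receptor, had 663 to 1966 b in KO, below 2500 b in all 6 libraries, and 1635 to 3429 b in WT. Of the list, Ltb (median 1984 b in KO, 2348 b in WT), Il2rg (1528 b in KO, 2064 b in WT), and the neighbours Lta and Tnf (1735 b in KO, 2002.5 b in WT) were marked but not broad, as was the region shared by Il18r1 and Il1rl1 (1712.5 b in KO, 2430.5 b in WT). Il22 and Il17a had no region within reach of a gene end or start site.

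Il23r, Ccr6, Il1r1 and Cxcr5 lacked a peak in several KO libraries. The longest peak at Il23r (chr6:67489198-67492206), a subunit of the interleukin 23 receptor, measured 1225 b in KO CCR6+ replicate 2 and 0 b in the other 5 KO libraries, against 1432 to 2814 b in WT. Ccr6 (chr17:8235766-8239426), the chemokine receptor that names the subset, had 1186 b in KO CCR6+ replicate 2 and 0 b in the other 5 KO libraries. In WT it had 2799 and 3553 b in CCR6+ cells, 378 and 1074 b in NKp46+ cells and 944 and 2619 b in DN cells. The KO and WT ranges overlap at Ccr6 and not at Il23r. Il1r1, the interleukin 1 receptor, had 1237, 668 and 645 b in the 3 KO libraries of replicate 2 and 0 b in those of replicate 1, against 1342 to 2771 b in WT. Cxcr5, a chemokine receptor for lymphoid follicles, had 753, 927 and 437 b in the KO libraries of replicate 2 and 0 b in those of replicate 1, against 422 to 2785 b in WT.

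Markers of the sorted subsets and of other cells check the label ILC3. Ncr1, which encodes NKp46 and was not broad, had 535 and 2262 b in KO NKp46+ libraries and 0 b in the other 4 KO libraries, against 1398 and 2539 b in WT NKp46+, 0 and 447 b in WT CCR6+ and 0 and 1846 b in WT DN libraries. In WT the mark at Ncr1 was therefore not confined to NKp46+ libraries. The T cell list had regions at 11 of 12 genes. The summed longest peaks of these regions ranged from 2818 to 20938 b in KO libraries and from 2491 to 21918 b in WT libraries. The summed longest peaks of the ILC3 effector and receptor list ranged from 7765 to 37248 b in KO and from 20242 to 53757 b in WT, and 7 of its 23 regions had a peak in all 6 KO libraries, against 18 in all 6 WT libraries. The part of cell makeup in these widths was not tested: in bulk libraries, fewer cells of a type and less mark per cell cannot be told apart.

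**Figure D3:**
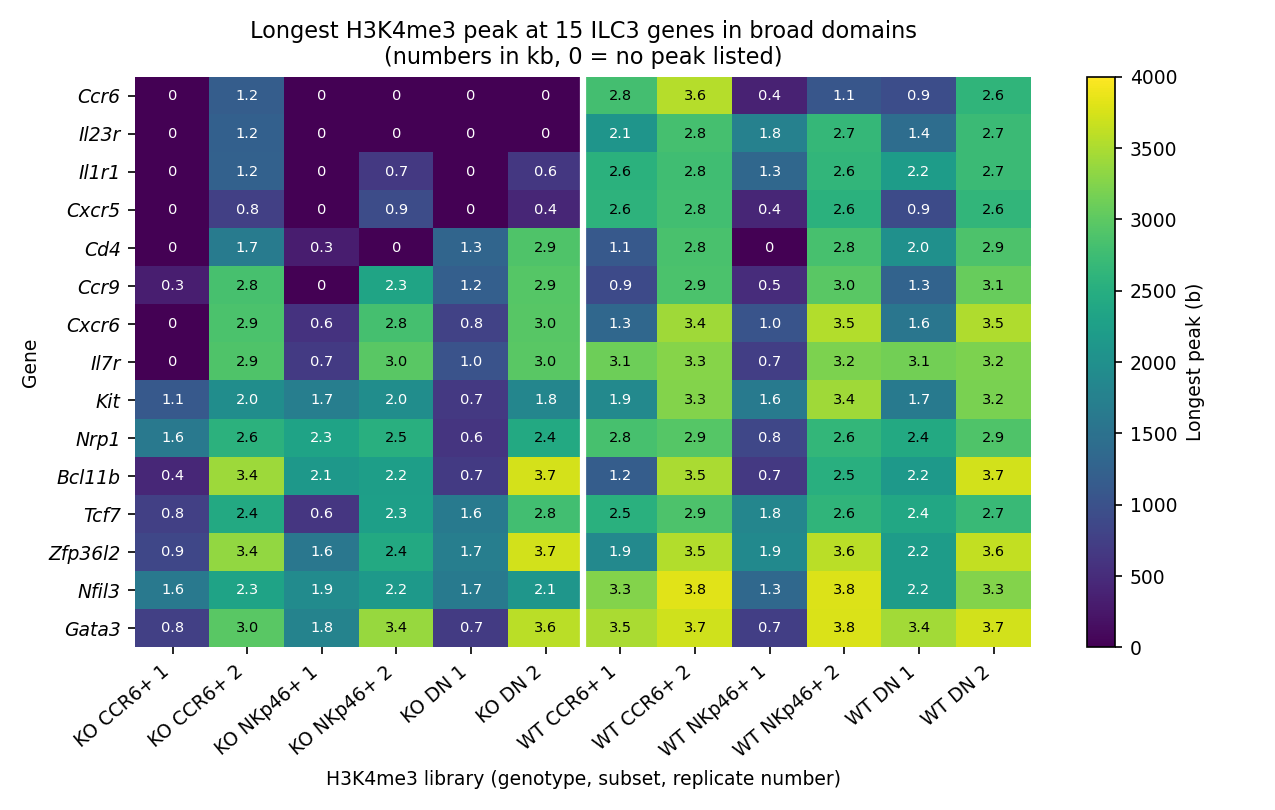
Longest H3K4me3 peak (b, colour scale; kb in the cells) at 15 ILC3 genes in broad domains, with KO libraries left of WT libraries. Ccr6 and Il23r have a peak in 1 of the 6 KO libraries, and Gata3 has a peak in all 12 libraries.

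Of the ILC3 transcription factors, Gata3, Nfil3, Zfp36l2, Tcf7 and Bcl11b were in broad domains, and each had a peak in all 12 libraries. Gata3, needed for ILC development, had 699 to 3589 b in KO (median 2380 b) and 745 to 3772 b in WT (median 3600.5 b). Nfil3, needed for ILC precursors, had 1623 to 2322 b in KO (median 2017.5 b) and 1344 to 3823 b in WT (median 3256.5 b), so no KO library reached 2500 b. Zfp36l2 stood on this list but is an RNA-binding protein that shortens the life of mRNAs. It had medians of 2071.5 b in KO and 2872.5 b in WT. Tcf7, which encodes TCF-1, had 1945.5 b in KO and 2575 b in WT, and Bcl11b had 2188.5 b in KO and 2339 b in WT. Marked but not broad were Runx3 (2180.5 b in KO, 2404.5 b in WT), Runx1 (1957.5 b in KO, 2341.5 b in WT), Tox (2090.5 b in KO, 2324 b in WT) and Id2 (1672 b in KO, 2180 b in WT).

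Immediate early genes are induced within minutes of a stimulus, and feedback genes restrain the same signals. Pim1, a kinase induced by cytokines (chr17:29489637-29493591), had 1859 to 3565 b in KO (median 2915 b) and 1541 to 3870 b in WT (median 3641 b). Myc had medians of 3538 b in KO and 3324.5 b in WT, Jun 2954.5 b in KO and 3227 b in WT, and Junb 2221 b in KO and 3227.5 b in WT. Cish, an inhibitor of cytokine signalling, had 2449 b in KO and 3229 b in WT. Nr4a3, an orphan nuclear receptor, had 2445.5 b in KO and 2937 b in WT. All 13 domains of this list had a peak in all 6 KO libraries, as did 365 of all 422 domains (86.5%). Of the 10 domains of ILC3 effectors and receptors, 2 did. At least 3 KO libraries held a peak of 2500 b or more at 7 of the 13 and at 2 of the 10, against 177 of all 422 domains (41.9%). No test was made between lists. Jund (2125 b in KO, 2327 b in WT), Btg2 (2196.5 b in KO, 2273 b in WT), Socs1 (1893.5 b in KO, 2190 b in WT) and Ier5 (1822.5 b in KO, 2150.5 b in WT) were marked but not broad.

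Genes of the H3K4 methylation machinery were themselves in broad domains. These were Kdm2b, a CXXC protein like CFP1 (median 3034.5 b in KO, 3251.5 b in WT), Hcfc1, a subunit of SET1/MLL complexes (2350.5 b in KO, 2788 b in WT), and the methyltransferases Kmt2c (2718.5 b in KO, 2780.5 b in WT), Kmt2a (2645 b in KO, 2669.5 b in WT) and Kmt2d (1621.5 b in KO, 2281 b in WT). Kdm6a, an H3K27 demethylase that joins the complexes of Kmt2c and Kmt2d, had 2339.5 b in KO and 2446 b in WT. Setd1a, the catalytic subunit of a CFP1 complex, was marked but not broad (1593 b in KO, 1720.5 b in WT). The KLF and quiescence list gave Foxo3 (2891.5 b in KO, 3501.5 b in WT), Klf13 (2865 b in KO, 3258 b in WT), Klf6 (2270 b in KO, 3249.5 b in WT) and Foxo1 (3147.5 b in KO, 3094 b in WT). All 4 held a peak of 2500 b or more in at least 3 KO libraries, as did 177 of all 422 domains (41.9%). The clock genes in domains were Dbp (1492 b in KO, 3242.5 b in WT) and Nr1d1 (2406 b in KO, 3087.5 b in WT), and the housekeeping genes were B2m (2036.5 b in KO, 2519.5 b in WT) and Actb (2005.5 b in KO, 2517.5 b in WT). Of the lymphocyte list, Coro1a had 2580 b in KO and 2542.5 b in WT, while Zap70 had 1109 b in KO and 2431 b in WT and Cd28 had 689.5 b in KO and 2338.5 b in WT.

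Applied to the 6 KO lists, the same rule gave 209 domains. Of these, 177 (84.7%) overlapped a WT domain, which is 41.9% of the WT domains. The 6 domains where every KO library held a peak of 2500 b or more were Kdm6b, Kmt2e, Cdk6, Mnt, Tsc22d2 and Ing2. The domain inside Kdm6b, which encodes an H3K27 demethylase, had 2976 to 3236 b in KO and 3176 to 3475 b in WT, and these ranges overlap. At 101 domains (23.9%) no KO library held such a peak.

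To set KO against WT widths without the WT library that chose the domains, each WT library was left out in turn, domains were chosen on the other 5, and the left-out library was compared with its KO partner of the same subset and replicate number. Width here is the covered length of all peaks within the domain's bounds, over domains with a peak in both libraries. The bounds came from all 6 WT lists, the left-out one included. KO peaks that ran past the bounds were therefore cut, and WT peaks never were. In replicate 1 the median was 1576.5 b in KO and 2510 b in WT CCR6+ cells, 1935 b in KO and 1865 b in WT NKp46+ cells, and 1726 b in KO and 2368 b in WT DN cells. In replicate 2 it was 2762 b in KO and 2949.5 b in WT CCR6+ cells, 2716 b in KO and 3020 b in WT NKp46+ cells, and 2858 b in KO and 2996 b in WT DN cells. KO domains were thus narrower in 5 of 6 pairs, and other regions were too. The log2 ratio of KO over WT averaged −0.23 ± 0.27 (SD, 6 pairs), with −0.36 ± 0.37 in replicate 1 and −0.11 ± 0.04 in replicate 2 (SD, 3 pairs each). For the longest single peak, which was not cut at the bounds, the mean log2 ratio was −0.26. Leaving out a replicate 1 library left 410 to 422 domains and leaving out a replicate 2 library 201 or 202, so the replicates' values rest on different sets of domains.

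Other regions had a log2 ratio of −0.10 ± 0.24 (SD, 6 pairs) in the same comparison. The domains' ratio lay below theirs in 6 of 6 pairs, with differences of −0.25 to −0.03 and a mean of −0.13 ± 0.09 (SD). Their ratio was −0.15 ± 0.37 in replicate 1 and −0.05 ± 0.05 in replicate 2 (SD, 3 pairs each). The choice on WT lists favours width in WT, so the choice was also made on the other 5 KO lists. The bounds then came from all 6 KO lists, so WT peaks were cut at them and KO peaks were not. The ratio was then −0.10 ± 0.32 (SD, 6 pairs) with 2 of 6 pairs narrower in KO, and other regions were narrower in KO in the same pairs. The domains' ratio lay below that of other regions in 6 of 6 pairs, by a mean of −0.07 ± 0.08 (SD). No test was made of these summaries over chosen domains.

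**Figure D4:**
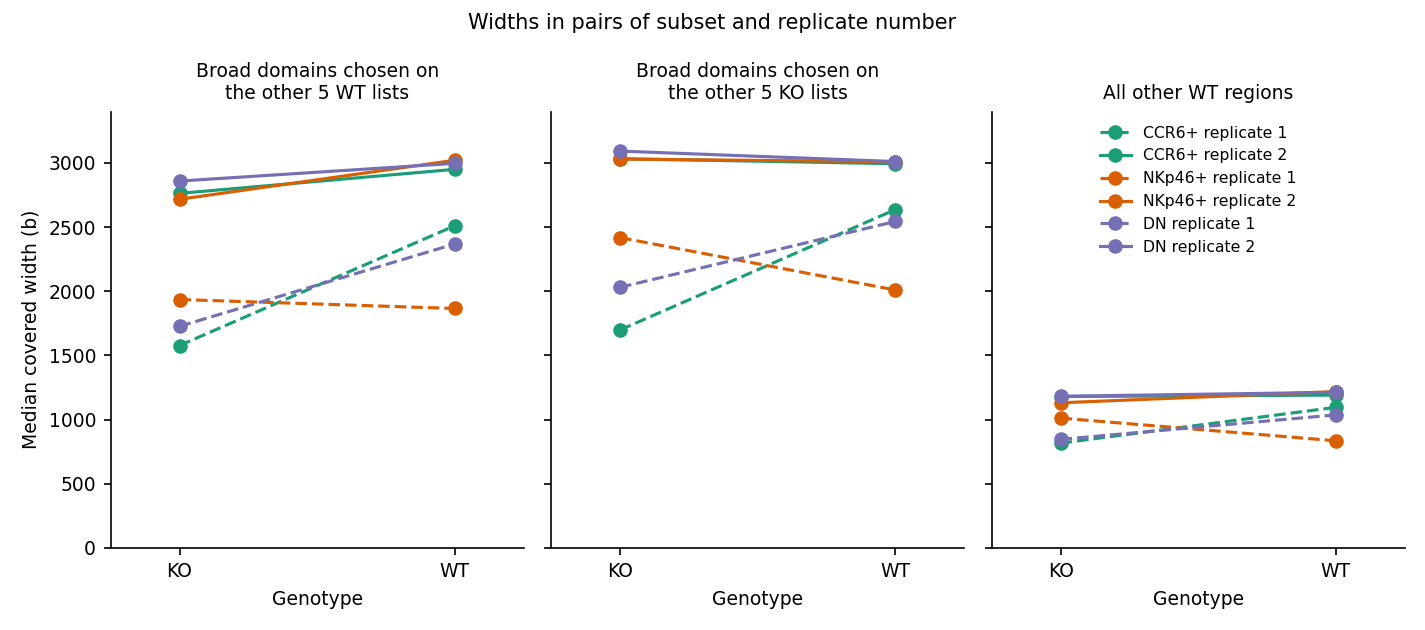
Median covered width (b) in KO (left points) and WT (right points) for the 6 pairs of subset and replicate number. The panels show domains chosen on the other 5 WT lists, domains chosen on the other 5 KO lists, and all other regions. Lines of replicate 1 (dashed) differ between subsets in direction, with NKp46+ wider in KO, and lines of replicate 2 (solid) are nearly flat.

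Per region, log2 covered width, centred on each library's median, was fitted with limma with subset as a covariate, over the 10041 regions with a peak in all 12 libraries (364 of the 422 domains). The median KO minus WT difference was −0.15 over the domains and 0.01 over all regions. At an adjusted p of at most 0.05, 10 regions (0.0996%) were narrower in KO and 0 wider, and 3 of the 364 domains were among them. At an unadjusted p under 0.05, 557 regions (5.55%) were narrower in KO, 97 of them domains. With replicate number as a block, 46 regions (0.458%) were narrower and 1 wider, 13 of them domains, all narrower in KO. The rule chose domains for their WT width, and KO peaks were cut at the WT bounds, so these counts are a description. With the longest single peak, which was not cut, 2 regions were narrower in KO and 0 domains were called. Within replicate 1 alone and within replicate 2 alone no region was called. Regions chosen without regard to genotype, with a peak of 2500 b or more in at least 6 of all 12 libraries, numbered 206, of which 198 had a peak in every library. Among the 10040 regions of that fit 20 (0.199%) were called and among the 198 broad ones 0 (limma, smallest adjusted p = 0.196). Without adjustment, p was under 0.05 for 984 of 10040 (9.8%) and 31 of 198 (15.7%). Of the 31, 29 (93.5%) were narrower in KO, against 589 of the 984 (59.9%). With the replicate block, 58 regions (0.578%) were called and again 0 of the 198.

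The 5 domains with the most negative differences, described without a test, were Rab11fip1, the predicted gene Gm39556 (−1.11 ± 0.49, SE), Rnf43, Plekhb2 and Adcy7. Rab11fip1 (chr8:27172083-27174789) encodes an effector of RAB11 in endosome recycling. Its covered width within the WT bounds was 633 to 1091 b in KO and 1616 to 2674 b in WT, with no overlap (log2 difference −1.32 ± 0.07, SE). Its longest peak, not cut at the bounds, was 789 to 1330 b in KO and 953 to 2674 b in WT, and these ranges overlap. Rnf43, a ubiquitin ligase that removes WNT receptors, had 585 to 2441 b in KO and 1225 to 2855 b in WT (−1.06 ± 0.23). Plekhb2 had −0.85 ± 0.30. At Adcy7, an adenylyl cyclase, the difference was −0.85 ± 0.56. The 13 domains called with the block held Rab11fip1, Rnf43 and Plekhb2 of these 5. The other 10 include, chosen after their values were seen, Tecpr1, an autophagy protein (947 to 1682 b in KO, 1906 to 2841 b in WT), Ptger2, a prostaglandin E2 receptor (1420 to 2059 b in KO, 2076 to 3216 b in WT), and Nfil3 (1623 to 2101 b in KO, 2057 to 3823 b in WT). These ranges of covered width did not overlap at Tecpr1 and Ptger2, and they did at Nfil3. The longest peak, not cut at the bounds, overlapped at Tecpr1 (947 to 1682 b in KO, 1355 to 2841 b in WT) and not at Ptger2. The 5 most positive were Myb, a regulator of progenitors (0.30 ± 0.33), Camk2b (0.28 ± 0.28), Cpt1a, the entry step of mitochondrial fatty acid oxidation (0.21 ± 0.09), Nr4a2 (0.20 ± 0.11) and Plac8 (0.20 ± 0.46).

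A peak was listed in all 6 KO libraries at 365 domains (86.5%) and in all 6 WT libraries at 410 (97.2%). In 3 or fewer KO libraries a peak was listed at 14 domains (3.32%), and 11 of these were among the 410 with a peak in all 6 WT libraries (2.68%, against 1.19% of other regions with a peak in all 6). Besides Il23r, Ccr6, Il1r1 and Cxcr5, the 14 hold Serinc2, with 451 b in KO CCR6+ replicate 2 and 0 b in the other 5 KO libraries against 414 to 2738 b in WT. They also hold Kif13a, Foxs1, Sorl1, Mapk10, Cdh17, Plekhg1, Clnk, the pseudogene Tdg-ps2 and a region without a gene. The cut at 3 libraries was chosen after these values were seen. In a fit of all 18599 regions, with 100 b added to each width before the log, 29 (0.156%) were narrower in KO, including 6 domains: Il23r, Ccr6, Serinc2, Kif13a, Sorl1 and Rab11fip1. As above, their place among the calls is a description.

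Subset differences were tested in the 6 KO libraries, which the rule did not use. Over 10459 regions with a peak in all 6, including 365 domains, 0 (0%) passed in CCR6+ against NKp46+, CCR6+ against DN or NKp46+ against DN cells (limma, smallest adjusted p = 1.00). The unadjusted p was under 0.05 in these contrasts at 123, 183 and 240 of the 10459 regions, and no other tool was run. Of these, 5, 14 and 22 were domains (1.37%, 3.84% and 6.03% of the 365). In the subset named first, 62, 112 and 160 of these regions were narrower, and 1, 13 and 22 of these domains. The domains with the largest differences follow, as a description. Covered width at Lef1, a partner of β-catenin, was 303 and 2695 b in KO CCR6+, 2748 and 2795 b in KO NKp46+ and 1592 and 2693 b in KO DN cells (replicates 1 and 2). Fyb, an adaptor in lymphocyte adhesion, had 573 and 3575 b in KO CCR6+, 602 and 704 b in KO NKp46+ and 2473 and 3527 b in KO DN cells. Both NKp46+ values of Fyb lay below both DN values (log2 difference −2.28 ± 0.60, SE), whereas the CCR6+ values spanned nearly the whole range. The domain shared by Mrps18b and Ppp1r10 had 2065 and 3189 b in KO CCR6+ and 1220 and 1593 b in KO NKp46+ cells, with no overlap (1.02 ± 0.14). Nrp1 had 1618 and 2568 b in KO CCR6+, 2305 and 2500 b in KO NKp46+ and 623 and 2427 b in KO DN cells. Cxcr3, a chemokine receptor of type 1 lymphocytes, had 565 and 1754 b in KO NKp46+ and 1050 and 3738 b in KO DN cells. The ranges of Cxcr3 and Nrp1 overlapped between subsets. The other leading domains were Pdgfb, Tbc1d10c with Ppp1ca and a region on chromosome 17 without a coding gene for CCR6+ against NKp46+, Gimap3, P2rx7, Shb and Irs2 for CCR6+ against DN, and P2ry10, Jag1 and the predicted gene Gm39556 for NKp46+ against DN cells.

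CFP1 peaks were found at a larger share of broad domains than of other regions. The share of domains that a CFP1 peak overlapped by 1 b or more was 28.6 ± 25.1% in KO and 55.3 ± 11.1% in WT (SD, n = 6 libraries each). For other regions it was 13.3 ± 13.3% in KO and 28.1 ± 4.91% in WT. In WT libraries domains exceeded other regions by 18.3 points or more, with a mean of 27.2 ± 6.68 points (SD). That difference went with width. Against other regions with a median WT width of 2000 to 2500 b, whose mean was 57.2 ± 8.04% in WT, the domains' share was no higher. In a window of 1000 b at the centre of each region, it was 30.6 ± 8.14% at domains and 27.4 ± 4.79% at other regions in WT. By width class, the WT share was 57.4%, 56.5% and 59.1% in the 3 widest classes, while in the centre window it was 55.0%, 44.2% and 32.4%.

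**Figure D5:**
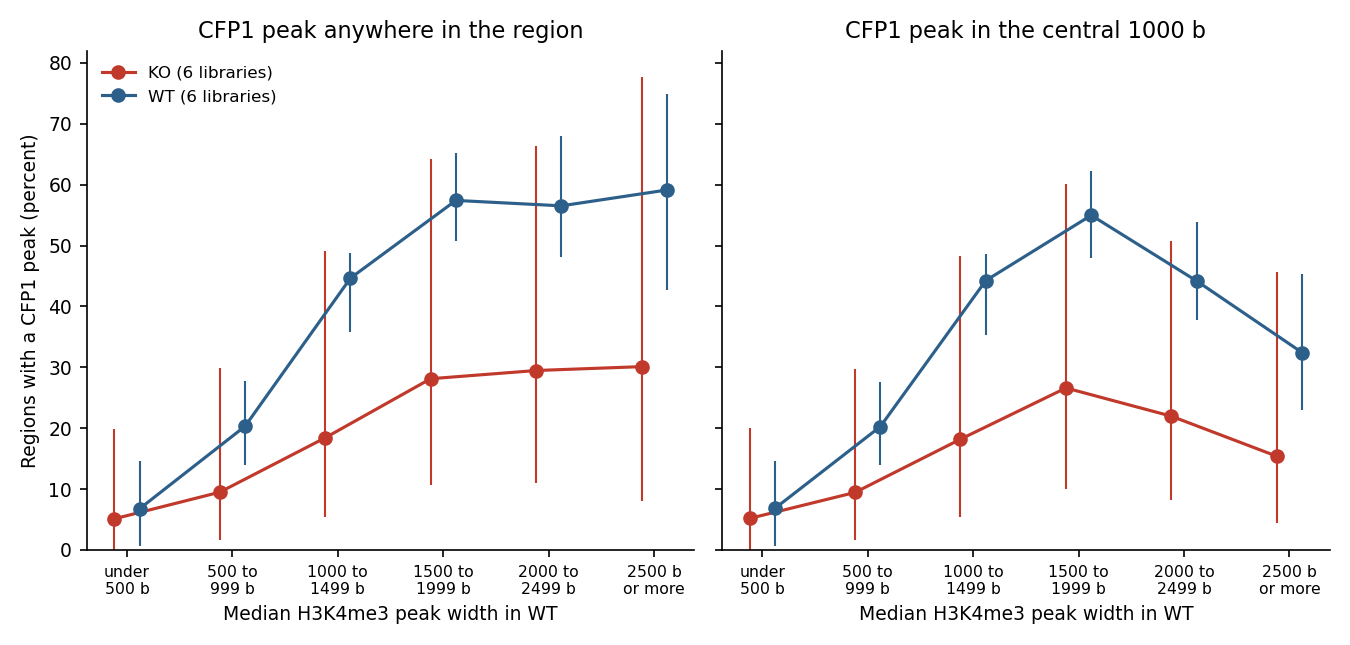
Regions with a CFP1 peak (percent) by class of median WT H3K4me3 width, anywhere in the region (left) and in its central 1000 b (right). Points are means over 6 libraries, lines at each point run from the lowest to the highest library, and KO is drawn left of WT. In WT the share is 57.4%, 56.5% and 59.1% in the 3 widest classes in the left panel and 55.0%, 44.2% and 32.4% in the right panel.

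Most CFP1 summits lay outside the middle of the domains. When each domain was cut into 3 equal parts, 74.5% to 79.1% of the CFP1 summits in WT libraries and 65.6% to 79.6% in KO libraries lay in the 2 outer parts, which make up 2 of the 3 parts. In domains with CFP1, it covered a median of 13.1% to 29.9% of the domain in KO libraries and 21.5% to 31.1% in WT libraries. All 6 WT libraries listed CFP1 at 136 domains (32.2%, against 12.1% of other regions), and none did at 86 (20.4%, against 51.3%). At 16 domains all 12 libraries listed it (3.79%, against 0.963% of other regions). In all 6 WT and 0 KO libraries it was listed at 0 domains (against 0.286% of other regions), a share at which a count of 0 among 422 says little. CFP1 was in at least 4 WT libraries at 208 of the 422 domains (49.3%, against 22.5% of other regions). By list, with no test between lists, these were 0 of 10 domains of ILC3 effectors and receptors, 2 of 5 of ILC3 transcription factors, 8 of 13 of immediate early genes, 5 of 6 of the SET1/MLL list and 4 of 4 of the KLF list.

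CFP1 at the domains was lower in KO in 5 of 6 pairs. In replicate 1 the share was 14.7% in KO and 51.2% in WT CCR6+ cells, 7.58% in KO and 46.2% in WT NKp46+ cells, and 11.6% in KO and 41.7% in WT DN cells. In replicate 2 it was 19% in KO and 69.4% in WT CCR6+ cells, 48.6% in KO and 56.2% in WT NKp46+ cells, and 70.1% in KO and 66.8% in WT DN cells. The mean difference was −26.7 points (SD 20.4 points over 6 pairs). It was −35.1 points in replicate 1 and −18.2 points in replicate 2. Without KO NKp46+ and KO DN of replicate 2, left out after their peak numbers were seen, the mean of the other 4 KO libraries lay 42.0 points below that of the 6 WT libraries (−42.0 points). Other regions moved alike: the ratio of KO to WT share was 0.164 to 1.05 at domains and 0.148 to 1.09 at other regions.

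Per region, the number of libraries with CFP1 was compared between genotypes by a two-sided Fisher's exact test, over 7573 regions with CFP1 in 2 to 10 of the 12 libraries, 284 of them domains. None of the 7573 passed (0%, smallest adjusted p = 0.269 by exact test). Before adjustment, p was under 0.05 at 427 regions (5.64%), all with fewer KO libraries, and 17 domains (5.99%). An exact permutation within the replicate block also called 0 regions and 427 before adjustment. Of the 284 domains, 251 (88.4%) had fewer KO than WT libraries with CFP1 and 5 (1.76%) had more, against 82.6% and 3.94% of all regions tested. Without the 2 KO libraries named above, 744 of 6722 regions (11.1%) and 37 of 263 domains (14.1%) passed, each with fewer KO libraries (exact test, smallest adjusted p = 0.0430). Domains with CFP1 in all 6 WT and at most 1 KO library numbered 11 (2.61%, against 1.59% of other regions). The widest were Ubtf, a factor of ribosomal RNA transcription (longest peak 3375.5 b in KO, 3581 b in WT), Arid1b, a subunit of BAF remodelling complexes (3226.5 b in KO, 3421 b in WT), and the neighbours Pfn1 and Eno3 (3017 b in KO, 3085.5 b in WT). The domain inside Nfkbiz, a regulator of NF-κB target genes (2202 b in KO, 2920 b in WT), and the splicing factor gene Srsf3 (1872.5 b in KO, 2669 b in WT) followed.

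The widest domains with no CFP1 peak in any WT library were Gpr183, Snx18, Cytip, Gfi1 and Fam78a. Gfi1, a repressor in lymphoid and myeloid progenitors, had 3389 b in KO and 3415 b in WT, and Cytip, which regulates lymphocyte adhesion, had 2300.5 b in KO and 3513 b in WT. In the left-out comparison, domains with CFP1 in 5 or 6 WT libraries had a log2 KO over WT width of −0.17 ± 0.20, and domains with CFP1 in 0 or 1 WT library had −0.36 ± 0.41 (SD, 6 pairs each). The second value was below the first in all 6 pairs. In CCR6+ cells of replicate 1, the medians were 1800 b in KO and 2521.5 b in WT with CFP1 in 5 or 6 WT libraries, and 1155 b in KO and 2407 b in WT with CFP1 in 0 or 1.

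The CG count of the promoters differed with CFP1 presence. The median 300 b promoter held 23 CG in broad domains (413 start sites of 315 genes), 22 in other regions (10035 start sites) and 4 where no WT region lay (10596 start sites). In domains with CFP1 in all 6 WT libraries it held 28 CG (153 start sites), and in domains with none it held 9 CG (74 start sites). For other regions the same values were 26 and 18. The promoters printed above include exceptions: Ubtf has 11 CG in a domain with CFP1, and Snx18 has 35 CG in a domain without it. Part of the Snx18 promoter runs past the domain's end (chr13:113618606), where CFP1 was not scored. At least 10 CG were held by 98.0% of promoters in domains with CFP1 in all 6 WT libraries and by 48.6% in domains with none, against 57.3% of all promoters.

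The peaks over start sites reached further downstream than upstream, at domains and at other regions alike. Over 255 domains with a single gene and an annotated start site, the peak over the start reached a median of 468 to 732 b upstream in KO libraries and 454 to 638.5 b in WT libraries. Downstream it reached 793.5 to 2051 b in KO and 1016.5 to 2407 b in WT. These medians rest only on domains with a peak over the start. In replicate 1 they numbered 186 in KO and 245 in WT CCR6+ cells, 220 in KO and 214 in WT NKp46+ cells. In DN cells of replicate 1 they numbered 211 in KO and 239 in WT. In replicate 2 they numbered 241 to 246 in KO and 244 to 249 in WT. The KO and WT medians thus rest on partly different domains. In replicate 2 the downstream reach was 1778 b in KO and 2343.5 b in WT CCR6+ cells, 1563 b in KO and 2407 b in WT NKp46+ cells, and 2051 b in KO and 2357 b in WT DN cells. The upstream reach in replicate 2 was 662 to 732 b in KO and 616.5 to 638.5 b in WT. In replicate 1 the upstream reach was 468 b in KO and 582 b in WT CCR6+ cells, 678.5 b in KO and 454 b in WT NKp46+ cells, and 491 b in KO and 554 b in WT DN cells. The downstream reach in replicate 1 was 793.5 b in KO and 1616 b in WT CCR6+ cells, 985.5 b in KO and 1016.5 b in WT NKp46+ cells, and 933 b in KO and 1460 b in WT DN cells. The downstream reach was thus shorter in KO in all 6 pairs, and the upstream reach in 2 of them. Other regions were much alike. Their downstream reach was shorter in KO in every pair but NKp46+ replicate 1 (662 b in KO, 594 b in WT). Their upstream reach was shorter in KO in the same 2 pairs. At other regions in replicate 2 the upstream reach was 395 to 431 b in KO and 342 to 366 b in WT, and the downstream reach was 806 to 872 b in KO and 895 to 925 b in WT. The WT reach is part of the width that chose the domains, so these values are a description.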

How the data were processed

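CUT&Tag libraries of 3 sorted ILC3 subsets, 2 genotypes and 2 antibodies were grouped by their sample titles into 12 groups of 2. The submitters' processing notes name the build mm10 and, per the labels, MACS2 2.2.7.1, ChIPseeker 1.28.3, Bowtie2 2.3.5.1, fastp 0.19.7 and Picard. Their settings, and whether a control library was used, were not found in the labels. One narrowPeak list per library was deposited by the authors, so peaks were not pooled over replicates. In these deposited lists a peak has a fold enrichment (a ratio), a −log10 p-value, a −log10 q-value and an integer score that was left aside. The lowest −log10 q in a list ranged from 1.30 to 1.42. No list gives reads, so depth is unknown, and a missing peak means that none was called.

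Broad domains, widths (longest peak, or covered bases within the region where so named) and CFP1 overlaps of 1 b or more were computed in Python 3.11.15 with pandas 2.3.3 and SciPy 1.17.1. A domain carries coding genes with an annotated end within 1000 b, or an annotated start site inside it, from RefSeq tables of GRCm38.p6. Covered widths were compared with limma 3.58.1 in R 4.3.3 and Benjamini-Hochberg adjustment over all regions tested, CFP1 presence with Fisher's exact tests adjusted in the same way. Both were tested on simulated data. Deviations of same-numbered KO and WT libraries from their group means correlated in each subset (Pearson's r = 0.25, 0.39 and 0.41 across regions). Replicate number was therefore taken as a pairing in the left-out comparison. The main fits held no replicate block, and values with a block stand beside results they change.

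Named were the 12 widest domains, members of each list by width, the 5 domains with the most negative and the 5 with the most positive KO minus WT difference, the 3 leading domains of each KO subset contrast in each direction, and the 5 widest domains with CFP1 in all 6 WT and at most 1 KO library or in no WT library. The members and gene lists were chosen with earlier results of these data known. One gene is not reported here.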

Additional observations from a re-analysis of the deposited data

How the results depend on the processing

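The number of domains depends on the rule: 1241 with a width of 2000 b, 133 with 3000 b, 29 with all 6 WT libraries, 250 with peaks of fold enrichment of 5 or more, and 120 with 2 of 3 WT libraries of replicate 1. Leaving out 1 WT library gave 201 to 422 domains, and the low values came without any 1 of the 3 WT libraries of replicate 2. Of the 10 regions called between genotypes, 0 were left without centring (which moves the median of all regions to −0.09), with peaks of fold enrichment of 5 or more, or within either replicate number (0 each). The count was 2 with the longest single peak, 29 over all regions with 100 b added, 47 with the replicate block and 4 to 18 without 1 library, and the cause was not tested. The genotype-blind broad regions gave 0 calls with the replicate block, without centring, within either replicate number and without each library, and 4 when chosen on 3 of 12 libraries. KO subset contrasts gave 0 calls with the replicate block, without centring and without each library. The left-out KO minus WT log2 width was −0.14 to −0.29 without 1 pair. CFP1 presence gave 0 calls without 1 library and 744 without the 2 KO libraries of replicate 2 chosen after the data were seen. The 27.2 points by which CFP1 at domains exceeded other regions in WT were 3.21 in the centre window, 10.8 with CFP1 peaks of fold enrichment of 5 or more, 13.2 against regions in all 6 WT libraries, −1.95 against regions of 2000 to 2500 b, and 25.6 to 29.0 without 1 library. CFP1 at domains, KO minus WT, was −22.5 to −35.0 points without 1 library. Depth, which the lists do not give, limits every statement on width and on a missing peak.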
